A study of Mus musculus with 48 samples.

Results

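Tfpi, Limch1, Calml4 and Thbs1 are 4 of the 25528 genes in the count table, and all 4 were among the 14972 genes tested. They were selected for large differences between gene-edited mouse progenitor lines in DMSO or in the response to etoposide. Values in DMSO and etoposide, and values set against DMSO, are therefore given as descriptions without a test. Tests were run in libraries that the selection had not used, from cells at high density and from transformed clones. These share the genotypes that the selection compared, so differences between genotypes could recur there. The p-values and ranks for genotypes therefore do not stand apart from the selection.

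RNA was sequenced from Cas9-Hoxb8 cells, granulocyte-monocyte progenitors (GMP) of the mouse that a conditional Hoxb8 protein keeps dividing and that carry the nuclease Cas9. There were 4 genotypes, namely wildtype, E6l2-KO (edited in Ercc6l2, which encodes a helicase-like protein tied to DNA repair), Trp53-KO (edited in the gene of p53) and E6l2-Trp53-KO (edited in both). Cells of each genotype stood for 48 h with the solvent DMSO or with etoposide, a topoisomerase II poison, after seeding at 0.25 M cells a well (M stands for mega), or were seeded at 4 M cells a well for high density. Etoposide-transformed cells came from Trp53-KO clones 4 and 6 and E6l2-Trp53-KO clones 7 and 12, and their RNA was taken with no drug given beforehand. Each of these 16 groups had 3 libraries. Every group carried Cas9 and Hoxb8, no separately edited lines are named within a genotype, and so genotype and edited line cannot be told apart. What separates the 3 libraries of a group is not stated, so p-values measure the spread among these libraries, which may be technical.

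The 48 libraries held 22.5 to 114 M counts, and 3 of them held over 40 M. Trp53 mRNA, the check on that edit, was 75.2 to 85.0 CPM (counts per M counts) in wildtype groups, 76.4 to 96.3 CPM in E6l2-KO groups, and 11.8 to 37.6 CPM in the groups edited in Trp53. Ercc6l2 mRNA was 26.2 to 30.1 CPM in every untransformed group, a level that checks no label, since small edits can leave mRNA in place. Of 12 progenitor markers, 11 or 12 reached 1 CPM in each untransformed group. In transformed clones 9 to 11 of them did, and their sum was 5389 to 6427 CPM, against 6446 to 10761 CPM in untransformed libraries. Single markers went both ways, with Mpo (myeloperoxidase) at 1.00 to 67.6 CPM in the clones against 2176 CPM in wildtype DMSO cells, and the receptor gene Kit at 2428 to 2745 CPM against 312 CPM. The 10 mast cell and basophil markers summed to 136731 to 185142 CPM, against 1453 to 3030 CPM in untransformed libraries. The 12 megakaryocyte, platelet and erythroid markers summed to 79.7 to 281 CPM in untransformed libraries and 394 to 757 CPM in the clones. The part of these shifts in the values below was not tested, and in bulk RNA fewer cells of a type and less RNA per cell cannot be told apart. Among 14 endothelial and fibroblast markers only Pecam1 and Pdgfrb reached 1 CPM in any group, while Cdh5, which defines endothelium, and the collagen gene Col1a1 stayed below 1 CPM throughout.

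The 4 genes have no common pathway. Tfpi encodes tissue factor pathway inhibitor, a Kunitz-type protein best known from endothelium and platelets that blocks factor Xa and the complex of tissue factor with factor VIIa. Thbs1 encodes thrombospondin 1, a matrix glycoprotein stored in platelet granules that binds CD47 and CD36 and can activate latent TGF-beta. Calml4 encodes a calmodulin-like light chain, known from intestinal brush borders as a partner of myosin 7b in the complex that links microvilli. Limch1 encodes a protein with LIM and calponin homology domains that, in human cells, binds non-muscle myosin II and favours stress fibres.

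In the GENCODE M21 annotation, on GRCm38, each gene is protein coding. Tfpi (ENSMUSG00000027082) lies at chr2:84432855-84476775 on the minus strand and Thbs1 (ENSMUSG00000040152) at chr2:118111876-118127133 on the plus strand. Limch1 (ENSMUSG00000037736) lies at chr5:66745827-67057158 and Calml4 (ENSMUSG00000032246) at chr9:62858080-62875921, both on the plus strand. The library kit does not mark strand, so reads of antisense genes that overlap Limch1, Calml4 and Thbs1 (the pseudogene Gm10653 for Calml4, the lincRNA Gm29233 for Thbs1) cannot be told apart from theirs.

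RefSeq promoter windows (GRCm38.p6, 250 bases before to 50 after the most upstream start) matched 3 of the 4 genes, and they are shown because these genes went from near 0 to clearly expressed between groups. CpG pairs are in capitals. The Tfpi window is chr2:84476710-84477009 on the minus strand, the Limch1 window chr5:66745639-66745938 and the Calml4 window chr9:62857854-62858153, both on the plus strand.
Tfpi promoter: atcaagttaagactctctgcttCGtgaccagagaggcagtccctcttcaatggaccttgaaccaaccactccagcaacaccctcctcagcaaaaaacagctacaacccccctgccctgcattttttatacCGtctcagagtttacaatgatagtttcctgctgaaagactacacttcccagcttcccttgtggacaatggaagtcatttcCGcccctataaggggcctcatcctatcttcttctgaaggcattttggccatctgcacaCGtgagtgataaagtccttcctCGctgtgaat
Limch1 promoter: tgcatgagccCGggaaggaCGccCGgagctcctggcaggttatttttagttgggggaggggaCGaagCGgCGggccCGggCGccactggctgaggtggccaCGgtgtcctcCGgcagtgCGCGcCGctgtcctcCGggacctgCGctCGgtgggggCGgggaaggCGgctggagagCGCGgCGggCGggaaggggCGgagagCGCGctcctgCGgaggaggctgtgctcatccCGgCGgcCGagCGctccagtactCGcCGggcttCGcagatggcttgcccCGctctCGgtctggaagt
Calml4 promoter: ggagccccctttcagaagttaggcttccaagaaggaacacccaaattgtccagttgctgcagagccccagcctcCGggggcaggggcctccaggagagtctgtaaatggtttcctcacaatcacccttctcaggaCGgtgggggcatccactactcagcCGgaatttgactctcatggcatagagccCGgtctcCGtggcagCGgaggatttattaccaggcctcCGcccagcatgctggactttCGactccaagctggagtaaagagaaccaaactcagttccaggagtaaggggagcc
The Limch1 window is CpG rich, with 35 CpG pairs, a number reached by 6.95% of 32851 RefSeq promoter windows. Calml4 has 8 CpG pairs and Tfpi 5, numbers reached by 48.6% and 62.0% of windows, where the median is 7. Motifs were searched on both strands and do not overlap one another. CACGTG, the E-box, was present in the Tfpi window and in 7.15% of all windows. TATAAA was also present in the Tfpi window and in 13.6% of all windows. Neither TGACTCA (5.20% of windows) nor the p53 decamer motif (8.36%) was found in these 3 windows. RefSeq lists further starts for Limch1 and Tfpi, and the windows at the second and the third start of Limch1 each hold 1 p53 decamer.

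Levels over the 16 groups spanned 277-fold for Tfpi, 358-fold for Limch1, 93.4-fold for Calml4 and 87.0-fold for Thbs1, from the lowest to the highest group mean. Each lowest mean was in a transformed clone. It rests on 1 to 4 counts a library for Tfpi, 2 to 14 for Limch1 and 2 to 7 for Calml4, so those folds are rough. Among untransformed groups Limch1 means ran from 2.99 to 39.9 CPM. Levels are CPM on one scale (TMM) for all 48 libraries, with mean ± SD over n = 3 libraries. The 4 genes did not share an order of groups. Between pairs of them the Pearson correlation of group means ran from -0.21 for Calml4 and Thbs1 to 0.55 for Limch1 and Calml4 over 16 groups. Over the 12 untransformed groups alone it was -0.66 for Calml4 and Thbs1, -0.62 for Tfpi and Limch1, and 0.38 for Limch1 and Calml4. The groups share genotypes and are not independent.

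**Figure D1:**
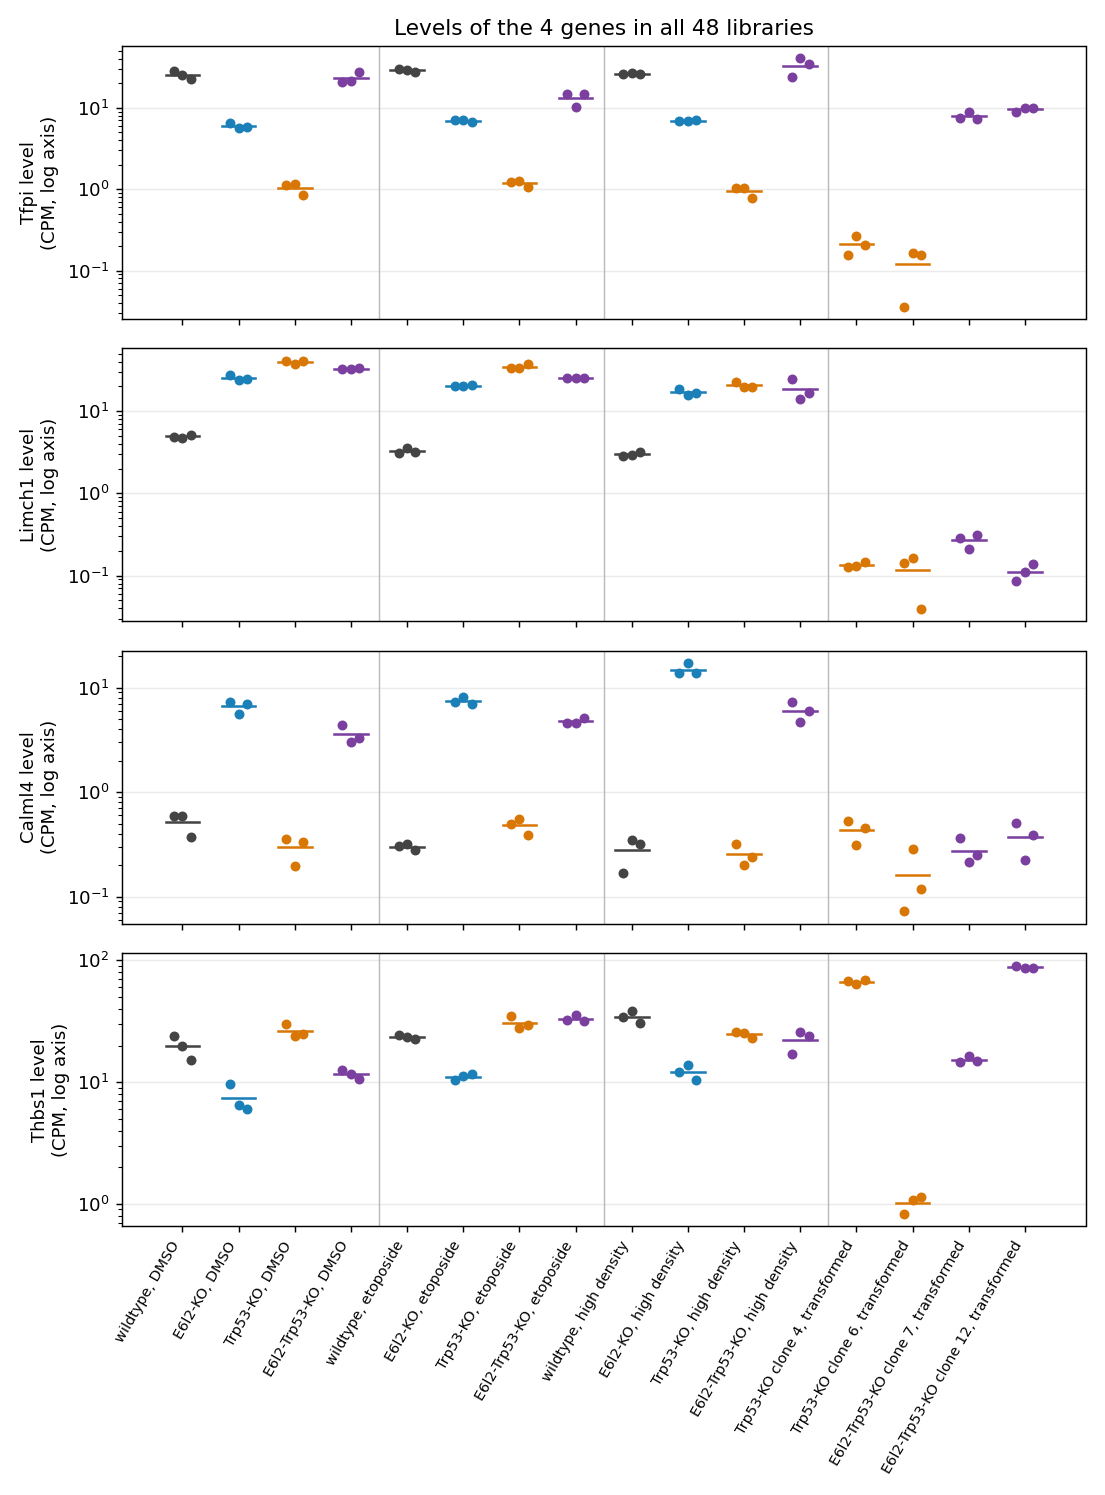
Level of each gene (CPM, log axis) in every library of the 16 groups, with points for libraries, short lines for group means and colours for genotypes. Calml4 sits above 3 CPM in all untransformed libraries edited in Ercc6l2 and below 1 CPM in all others, whereas Tfpi in E6l2-Trp53-KO cells overlaps wildtype in DMSO and at high density, lies below it with etoposide, and is low in both single knockouts.

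Tfpi was low in each single knockout, and in the double knockout it overlapped wildtype in DMSO and at high density. In DMSO its 3 libraries held 28.2, 25.5 and 22.8 CPM in wildtype, against 21.1, 21.2 and 27.8 CPM in E6l2-Trp53-KO cells. E6l2-KO libraries held 6.53, 5.64 and 5.82 CPM, and Trp53-KO libraries 1.13, 1.16 and 0.840 CPM. Wildtype and double knockout libraries overlapped, and both lay above all single knockout libraries. The mean in E6l2-KO cells (5.99 ± 0.472 CPM) was 4.25-fold below wildtype (25.5 ± 2.70 CPM, log2 fold change -2.09, SE 0.13), and that in Trp53-KO cells (1.05 ± 0.179 CPM) 24.0-fold below (-4.59, SE 0.18).

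With etoposide, Tfpi held 29.8, 29.2 and 27.9 CPM in wildtype libraries. E6l2-KO libraries held 7.13, 7.02 and 6.76 CPM, and Trp53-KO libraries 1.24, 1.26 and 1.07 CPM. E6l2-Trp53-KO libraries held 14.9, 10.2 and 14.8 CPM, all below their DMSO libraries (log2 fold change -0.80, SE 0.12) and all below wildtype with etoposide, by 2.16-fold on average (-1.11, SE 0.12). Wildtype and Trp53-KO libraries with etoposide overlapped those in DMSO. E6l2-KO libraries with etoposide lay just above those in DMSO (0.22, SE 0.15). Etoposide replicate 3 of the double knockout held over 40 M counts, and its Tfpi level lay between or beside those of the other libraries.

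At high density the genotypes could be tested. Tfpi held 26.0, 27.0 and 26.4 CPM in wildtype libraries, 6.82, 6.88 and 7.19 CPM in E6l2-KO and 1.03, 1.05 and 0.786 CPM in Trp53-KO libraries. The double knockout held 23.7, 40.7 and 34.5 CPM, a wide spread in which replicate 1 was low. No libraries overlapped except those of wildtype and double knockout cells. Tfpi was 3.79-fold lower in E6l2-KO than in wildtype cells (log2 fold change -1.92, SE 0.13, adjusted p = 1.17e-14, edgeR quasi-likelihood test). In Trp53-KO cells it was 27.7-fold lower than in wildtype (-4.79, adjusted p = 1.00e-23), the 11th largest absolute log2 fold change among the genes tested. Against Trp53-KO cells the double knockout was 34.5-fold higher (5.11, adjusted p = 1.66e-25), and against E6l2-KO cells 4.71-fold higher (2.24, adjusted p = 1.76e-17). Megakaryocyte, platelet and erythroid markers were highest in the double knockout among untransformed cells. Their sum at high density was 267 ± 20.8 CPM, against 153 ± 15.4 in wildtype, 170 ± 9.05 in E6l2-KO and 125 ± 8.82 in Trp53-KO. In DMSO the sum was 160 ± 4.29 CPM in the double knockout and 85.5 to 99.8 CPM in the other genotypes. With etoposide it was 162 ± 16.7 CPM in the double knockout and 112 ± 4.07 CPM in wildtype, while Tfpi was lower in the double knockout (13.3 against 29.0 CPM). The part of these markers in the Tfpi differences was not tested. At high density Tfpi was called higher in the double knockout than in wildtype by a log2 fold change of only 0.31 (SE 0.12, adjusted p = 0.0442), with overlapping libraries. That call ended without replicate 2 of the double knockout (0.13, adjusted p = 0.499) and without replicate 3 (0.28, adjusted p = 0.145). It also ended without any single wildtype library (0.30 to 0.33, adjusted p = 0.0806 to 0.101) and with DESeq2 (0.32, adjusted p = 0.0655).

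All 4 genes were called between E6l2-KO and wildtype cells at high density, where 3.23% of 14972 genes tested were called. For Trp53-KO against wildtype the count was 3 of 4 (7.17% of all genes), and for E6l2-Trp53-KO against wildtype 4 of 4 (22.6%). Between edited genotypes 3 of 4 were called for Trp53-KO against E6l2-KO (9.70%), 3 of 4 for E6l2-Trp53-KO against E6l2-KO (22.4%) and 2 of 4 for E6l2-Trp53-KO against Trp53-KO (19.6%). The selection saw cells of the same genotypes in other conditions, so these counts, and the p-values and ranks of single genes, do not stand apart from it.

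**Figure D2:**
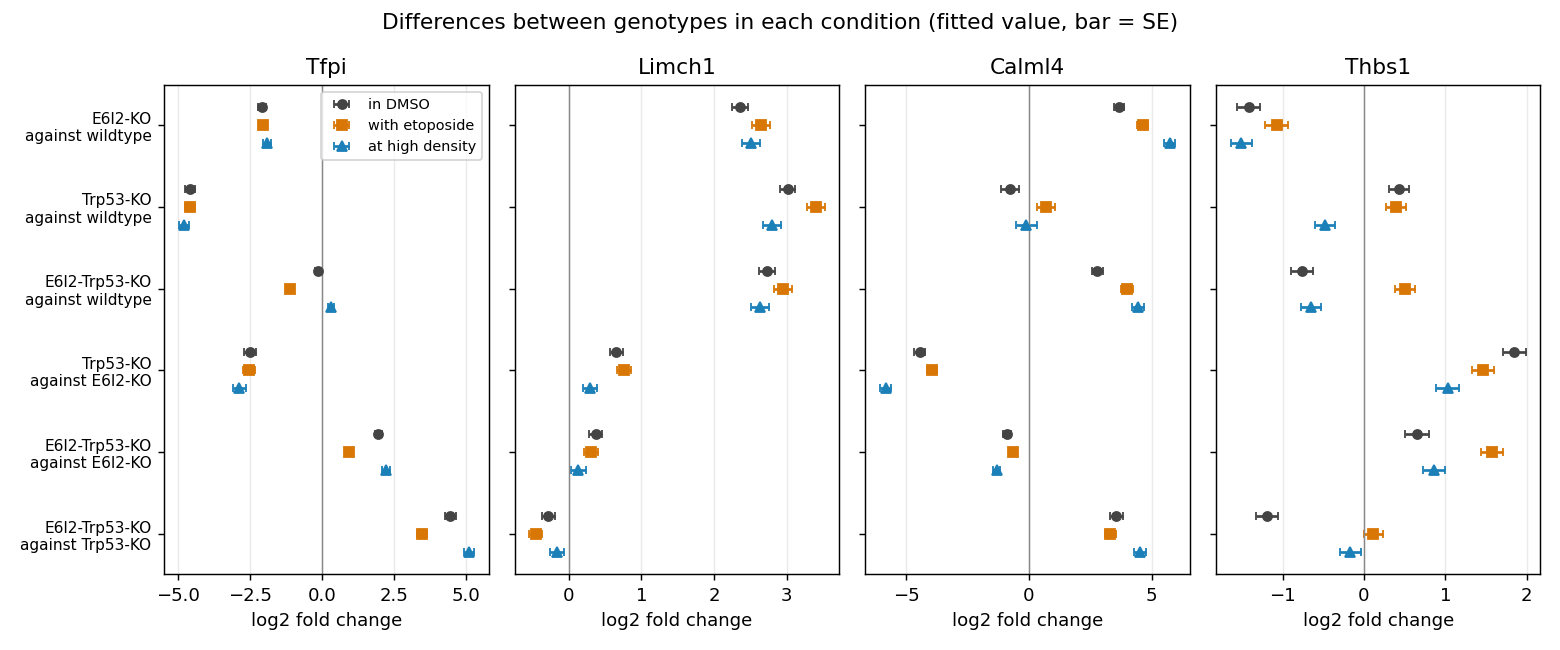
Fitted log2 fold change (x axis, bars SE) for each of the 6 pairs of genotypes in DMSO, with etoposide and at high density, one panel a gene. Only the high density values were tested. For Thbs1, Trp53-KO against wildtype was 0.43 in DMSO and -0.48 at high density.

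Limch1 was high in every edited genotype. In DMSO it held 4.84, 4.77 and 5.20 CPM in wildtype libraries, against 27.2, 23.9 and 24.8 CPM in E6l2-KO. Trp53-KO libraries held 40.5, 37.9 and 41.1 CPM and E6l2-Trp53-KO libraries 32.8, 32.3 and 33.3 CPM. No groups overlapped, and the order from low to high was wildtype, E6l2-KO, E6l2-Trp53-KO and Trp53-KO. The means were 5.11-fold, 6.62-fold and 8.05-fold above wildtype (4.94 ± 0.229 CPM) in that order of edited genotypes.

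Etoposide came with lower Limch1 levels in all 4 genotypes. Libraries held 3.13, 3.59 and 3.16 CPM in wildtype, against 20.2, 20.3 and 21.1 CPM in E6l2-KO cells. Trp53-KO libraries held 33.5, 33.5 and 37.4 CPM and E6l2-Trp53-KO libraries 25.2, 25.6 and 25.5 CPM. In each genotype every etoposide library lay below every DMSO library, with log2 fold changes of -0.59 in wildtype, -0.30 in E6l2-KO, -0.20 in Trp53-KO and -0.37 in E6l2-Trp53-KO cells. Whether these responses differ was not tested.

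At high density Limch1 was also below its DMSO level in each genotype. Wildtype libraries held 2.86, 2.91 and 3.20 CPM and E6l2-KO libraries 18.8, 15.8 and 16.6 CPM. Trp53-KO libraries ran from 19.7 to 22.7 CPM and E6l2-Trp53-KO libraries held 24.6, 14.3 and 16.7 CPM. All edited libraries lay above all wildtype libraries, and the 3 edited groups lay close together. Limch1 was 5.67-fold higher in E6l2-KO than in wildtype cells (log2 fold change 2.50, SE 0.13, adjusted p = 3.67e-19), 6.94-fold higher in Trp53-KO (2.79, adjusted p = 1.40e-21) and 6.22-fold higher in E6l2-Trp53-KO cells (2.64, adjusted p = 7.05e-21). The double knockout was not called against E6l2-KO (0.13, adjusted p = 0.389) or against Trp53-KO cells (-0.16, adjusted p = 0.294). Both values hung on single double knockout libraries. Without replicate 1 the difference from Trp53-KO was called (-0.43, adjusted p = 5.44e-05), and without replicate 2 that from E6l2-KO was called (0.29, adjusted p = 0.0226). Trp53-KO against E6l2-KO cells stood at 0.29 (adjusted p = 0.0539), and it was called without E6l2-KO replicate 1 (0.36, adjusted p = 0.0259) and with a replicate block (0.29, adjusted p = 0.0365).

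Among untransformed groups, Calml4 went with the Ercc6l2 edit. In DMSO E6l2-KO libraries held 7.30, 5.64 and 6.90 CPM and E6l2-Trp53-KO libraries 4.38, 3.04 and 3.32 CPM. Wildtype libraries held 0.588, 0.592 and 0.371 CPM and Trp53-KO libraries 0.356, 0.194 and 0.336 CPM, which rest on 5 to 17 counts each. Both groups with the Ercc6l2 edit lay above both groups without it in every library. The mean was 12.8-fold above wildtype in E6l2-KO cells (6.61 ± 0.871 against 0.517 ± 0.126 CPM) and 6.90-fold above in double knockout cells (3.58 ± 0.706 CPM).

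With etoposide the same division was seen. E6l2-KO libraries held 7.22, 8.22 and 7.02 CPM and E6l2-Trp53-KO libraries 4.62, 4.62 and 5.16 CPM. Wildtype libraries held 0.304, 0.316 and 0.278 CPM and Trp53-KO libraries 0.496, 0.554 and 0.388 CPM. E6l2-KO libraries overlapped those in DMSO, while double knockout libraries with etoposide all lay above those in DMSO (log2 fold change 0.44, SE 0.16).

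At high density Calml4 had its highest mean of the 3 conditions in both genotypes with the Ercc6l2 edit. In wildtype and Trp53-KO cells its mean was lowest at high density, from 5 to 10 counts a library. E6l2-KO libraries held 13.8, 17.1 and 13.7 CPM and E6l2-Trp53-KO libraries 7.30, 4.72 and 5.92 CPM. Wildtype libraries held 0.166, 0.344 and 0.320 CPM and Trp53-KO libraries 0.320, 0.202 and 0.239 CPM. The groups with the Ercc6l2 edit lay above the others in every library, and E6l2-KO lay above the double knockout. Calml4 was 53.4-fold higher in E6l2-KO than in wildtype cells (log2 fold change 5.74, SE 0.22, adjusted p = 2.80e-23), the 6th largest absolute log2 fold change among the genes tested. The double knockout stood 21.6-fold above wildtype (4.43, adjusted p = 7.19e-19) and 23.2-fold above Trp53-KO cells (4.53, adjusted p = 7.10e-19). It stood 2.47-fold below E6l2-KO cells (-1.31, adjusted p = 1.55e-09). Trp53-KO and wildtype libraries overlapped (-0.10, adjusted p = 0.944). Against DMSO the level at high density was 2.25-fold higher in E6l2-KO cells (1.17, SE 0.14) and 1.69-fold higher in double knockout cells (0.75, SE 0.16), with no overlap in either.

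Thbs1 was lowest in E6l2-KO cells in each of the 3 conditions. In DMSO it held 24.0, 19.8 and 15.2 CPM in wildtype, against 30.1, 24.0 and 24.9 CPM in Trp53-KO libraries. E6l2-KO libraries held 9.60, 6.44 and 6.05 CPM and E6l2-Trp53-KO libraries 12.5, 11.6 and 10.6 CPM. Both groups with the Ercc6l2 edit lay below both groups without it. Wildtype libraries spread widely, with a mean of 19.7 ± 4.40 CPM, 2.67-fold above E6l2-KO and 1.70-fold above double knockout cells.

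With etoposide the double knockout stood higher. Its libraries held 32.2, 35.8 and 31.9 CPM, 2.88-fold above DMSO (log2 fold change 1.52, SE 0.13) and above the wildtype etoposide libraries of 24.2, 23.3 and 22.6 CPM. E6l2-KO libraries held 10.3, 11.3 and 11.7 CPM, 1.51-fold above DMSO with no overlap (0.60, SE 0.16). Trp53-KO libraries held 35.1, 27.7 and 29.2 CPM and, like the wildtype ones, overlapped their DMSO libraries.

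At high density Thbs1 held 34.2, 38.7 and 30.8 CPM in wildtype, against 12.2, 14.0 and 10.4 CPM in E6l2-KO libraries. Trp53-KO libraries held 25.9, 25.2 and 23.2 CPM and E6l2-Trp53-KO libraries 17.0, 25.7 and 23.8 CPM. Wildtype lay above all edited groups, E6l2-KO lay below all others, and the Trp53-KO and double knockout libraries overlapped. Thbs1 was 2.84-fold lower in E6l2-KO than in wildtype cells (log2 fold change -1.51, SE 0.13, adjusted p = 1.50e-11) and 1.57-fold lower in the double knockout (-0.65, adjusted p = 7.86e-05). Trp53-KO and double knockout cells stood above E6l2-KO cells by 1.03 (adjusted p = 3.83e-07) and 0.86 (adjusted p = 5.63e-06) on the log2 scale. Between the latter pair of Trp53-edited genotypes Thbs1 was not called (-0.17, adjusted p = 0.410). Trp53-KO against wildtype was called (-0.48, adjusted p = 0.00802), but not without wildtype replicate 2 (-0.39, adjusted p = 0.0806) or without Trp53-KO replicate 3 (-0.43, adjusted p = 0.0502). In DMSO that difference had the opposite sign (0.43, SE 0.13). From DMSO to high density the log2 difference was 0.81 in wildtype, 0.73 in E6l2-KO and 0.93 in double knockout cells, none with overlapping libraries, while Trp53-KO libraries overlapped.

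Transformed clones split the 4 genes. Limch1 was close to absent in all 4 clones, with 0.126, 0.132 and 0.147 CPM in clone 4 and 0.144, 0.165 and 0.0392 CPM in clone 6. Clone 7 held 0.284, 0.212 and 0.309 CPM and clone 12 held 0.0849, 0.112 and 0.137 CPM, from 1 to 14 counts a library. Against DMSO cells of their genotype the clones were lower by log2 fold changes of -8.12 and -8.37 (clones 4 and 6) and -6.89 and -8.00 (clones 7 and 12). Limch1 was called between neither pair of clones (adjusted p = 0.826 for clone 6 against 4 and 0.150 for clone 12 against 7). Calml4 held 0.534, 0.308 and 0.456 CPM in clone 4, 0.0720, 0.288 and 0.118 CPM in clone 6, 0.365, 0.212 and 0.247 CPM in clone 7 and 0.510, 0.224 and 0.390 CPM in clone 12. The double knockout clones thus lay 12.9-fold and 9.33-fold below their DMSO cells, at the level of cells without the Ercc6l2 edit. Clone 6 was called below clone 4 for Calml4 (log2 fold change -1.51, adjusted p = 0.00642), a difference that rests on 2 to 31 counts a library and was not called without clone 6 replicate 1 (-1.14, adjusted p = 0.0853). Clone 12 was not called against clone 7 (0.46, adjusted p = 0.468).

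Tfpi kept apart by genotype among the clones. Trp53-KO clones held 0.157, 0.264 and 0.206 CPM (clone 4) and 0.0360, 0.165 and 0.157 CPM (clone 6), while E6l2-Trp53-KO clones held 7.49, 8.88 and 7.39 CPM (clone 7) and 9.0, 9.87 and 10.1 CPM (clone 12). All 4 clones lay below the DMSO libraries of their genotype, by 5.08-fold, 8.81-fold, 2.96-fold and 2.41-fold in that order. Over their 3 libraries, clones 4 and 6 held 25 and 9 Tfpi counts in sum, so folds that use them are rough. With the 3 libraries of each clone summed, so that clones were the replicates (2 against 2), Tfpi was 54.1-fold higher in E6l2-Trp53-KO clones (log2 fold change 5.76, SE 0.33, adjusted p = 0.00102). It was the only one of the 4 genes called in that comparison, in which 29.1% of 15865 genes tested were called. Limch1 (0.58, adjusted p = 0.444), Calml4 (0.10, adjusted p = 0.904) and Thbs1 (0.59, adjusted p = 0.810) were not called. Within a genotype Tfpi was called for neither clone 6 against 4 (-0.79, adjusted p = 0.451) nor clone 12 against 7 (0.30, adjusted p = 0.168).

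Thbs1 differed between clones of the same genotype. Clone 4 held 68.1, 63.6 and 69.0 CPM and clone 6 held 0.828, 1.07 and 1.14 CPM, a 66.3-fold difference (log2 fold change -6.05, SE 0.19, adjusted p = 7.73e-28) and the 7th largest of all genes tested in absolute size. Clone 12 held 90.7, 86.4 and 87.1 CPM and clone 7 held 14.6, 16.4 and 14.9 CPM, a 5.75-fold difference (2.52, SE 0.12, adjusted p = 1.37e-20). Clone 6 had the lowest and clone 12 the highest mean of all 16 groups, with the DMSO cells of both genotypes between them. Between clones 6 and 4 there were 2 of the 4 genes called (21.6% of all genes tested), and between clones 12 and 7 there was 1 (11.7%).

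Markers of other cells differed between the clones too, some in the order of Thbs1 and some not. The 10 macrophage and dendritic cell markers summed to 66.8 to 71.5 CPM in clone 4, 33.5 to 37.5 CPM in clone 6, 65.5 to 67.2 CPM in clone 7 and 173 to 193 CPM in clone 12, against 20.5 to 72.5 CPM in untransformed libraries. They numbered 6, 3, 8 and 8 at 1 CPM or more in those clones, and Marco and Cd209a were at most 0.03 CPM in each. The complement gene C1qb, a macrophage marker, was at 2.18, 0.0502, 13.4 and 48.1 CPM in clones 4, 6, 7 and 12, and Cd68 at 29.9, 8.14, 23.9 and 74.8 CPM. C1qb was thus higher in clone 7 than in clone 4, while Thbs1 was lower in clone 7 than in clone 4. Flt3l, of the same list, was at 15.7, 19.9, 11.6 and 12.3 CPM in that order of clones, highest where Thbs1 was lowest. The platelet integrin gene Itga2b was also highest in clone 6, at 464, 565, 275 and 246 CPM. The progenitor gene Mpo was at 19.5, 1.00, 6.32 and 67.6 CPM in the same order. Their part in the Thbs1 difference was not tested.

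**Figure D3:**
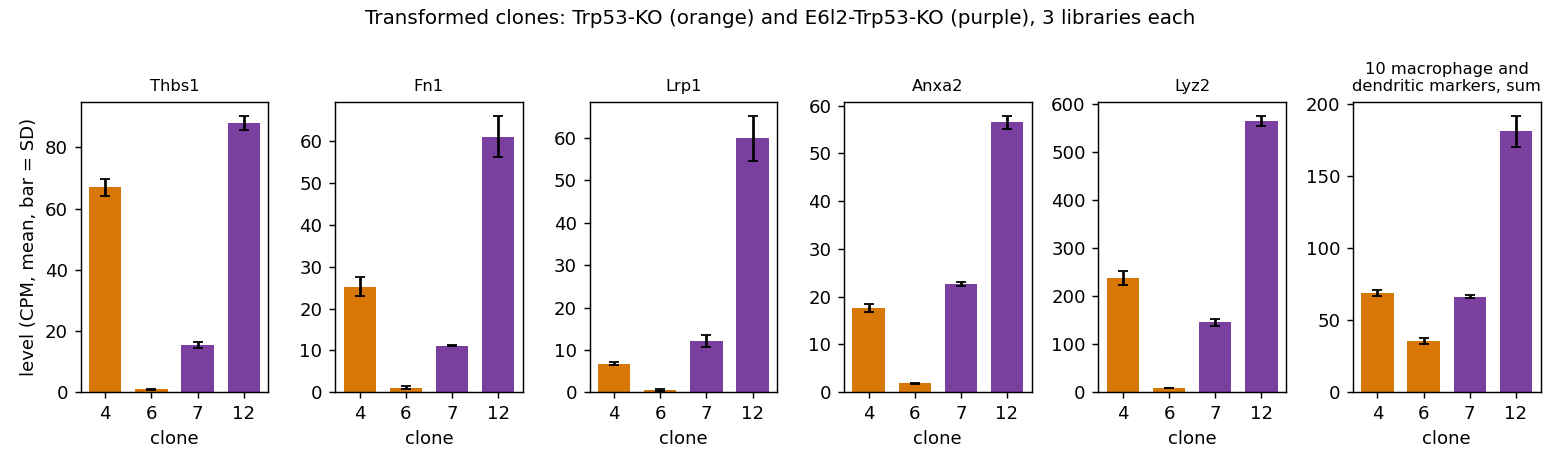
Mean level (CPM, bars SD over 3 libraries) in the 4 transformed clones of Thbs1, fibronectin Fn1, the scavenger receptor Lrp1, annexin Anxa2, lysozyme Lyz2 and the sum of 10 macrophage and dendritic cell markers. Clone 6 is lowest and clone 12 highest in every panel, from 1.01 to 88.0 CPM for Thbs1. Fn1, Lrp1 and Anxa2 were picked among called genes and Lyz2 by its correlation with Thbs1, so the shared order partly follows from the choice. Clone 7 is above clone 4 for Lrp1 (12.1 against 6.78 CPM) and Anxa2 (22.7 against 17.7 CPM), unlike for Thbs1. Pros1 and F2rl3, not shown, were higher in clone 6 than in clone 4.

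Among thrombospondins, their receptors and matrix partners (27 genes, 20 tested), 10 were higher and 0 lower in clone 12 than in clone 7, and 5 were higher and 6 lower in clone 6 than in clone 4, with Thbs1 itself counted in each. Over all genes 11.7% were called between clones 12 and 7, with 1393 higher and 352 lower, and 21.6% between clones 6 and 4. Median log2 fold changes were 0.20 and 0.17, against 0.03 and 0.02 over all genes tested. Fibronectin (Fn1), a matrix protein, had a level of 25.2 ± 2.29 CPM in clone 4, against 1.11 ± 0.323 CPM in clone 6 (-4.49, adjusted p = 1.18e-27). Its level was 61.1 ± 4.99 CPM in clone 12, against 11.2 ± 0.184 CPM in clone 7 (2.45, adjusted p = 1.13e-23). Lrp1, the receptor that takes up thrombospondin 1, fell by 3.75 on the log2 scale from clone 4 to clone 6 (adjusted p = 8.32e-19) and was 2.30 higher in clone 12 than in clone 7 (adjusted p = 1.28e-21). The fatty acid and thrombospondin receptor gene Cd36 reached 6.01 ± 0.200 CPM in clone 12, 1.58 ± 0.510 CPM in clone 7, but under 0.1 CPM in clones 4 and 6. At high density the list was mixed, with 1 gene higher and 3 lower in E6l2-KO than in wildtype cells, 0 higher and 3 lower in Trp53-KO, and 5 higher and 6 lower in E6l2-Trp53-KO, where 3.23%, 7.17% and 22.6% of all genes were called. Perlecan (Hspg2), a matrix proteoglycan, was at 6.00 ± 0.760 CPM in wildtype and 16.3 ± 4.71 CPM in double knockout cells at high density (1.44, adjusted p = 5.25e-11), against 2.78 ± 0.456 CPM in E6l2-KO cells (-1.11 from wildtype, adjusted p = 4.50e-06). The syndecan gene Sdc1 was higher in the double knockout than in wildtype by 0.68 (adjusted p = 5.52e-11), at 686 ± 50.4 against 429 ± 11.8 CPM.

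The coagulation and fibrinolysis genes (35 genes, 26 tested) went both ways, and the counts include Tfpi. At high density 1 was higher and 3 lower in E6l2-KO than in wildtype cells, 1 higher and 6 lower in Trp53-KO, and 3 higher and 8 lower in E6l2-Trp53-KO, beside 3.23%, 7.17% and 22.6% of all genes. E6l2-Trp53-KO against Trp53-KO had 7 higher and 6 lower, beside 19.6% of all genes. Median log2 fold changes against wildtype were 0.002, -0.04 and -0.06 in the order above, against 0.005, 0.003 and -0.005 over all genes tested. For E6l2-Trp53-KO against Trp53-KO the median was -0.14, against -0.008 over all genes tested. S100a10, the partner of annexin A2 in binding plasminogen, was at 1.80 ± 0.0494 CPM in wildtype and at or under 0.0702 CPM in all 3 edited genotypes (adjusted p = 9.98e-09, 8.89e-09 and 9.26e-10 for E6l2-KO, Trp53-KO and the double knockout). Gas6, a vitamin K dependent ligand of TAM receptors, was lower than wildtype in all 3 as well, by -0.71 in E6l2-KO (adjusted p = 0.00322), -0.75 in Trp53-KO (adjusted p = 0.000964) and -0.82 in double knockout cells (adjusted p = 9.99e-05). Between genotypes of clones the list of 24 tested had 4 higher and 8 lower in E6l2-Trp53-KO, beside 29.1% of all genes, with Gas6 at 4.26 (adjusted p = 0.0115) and the thrombin receptor gene F2rl3 at -2.33 (adjusted p = 0.00271). Between clones, the genes of factor X (F10) and annexin A2 (Anxa2) were lower in clone 6 than in clone 4, at -3.40 and -3.25 on the log2 scale (adjusted p = 4.54e-14 and 9.38e-22). They were higher by 2.02 and 1.32 in clone 12 than in clone 7 (adjusted p = 6.82e-11 and 5.80e-15). Other genes of the list went the other way, with the protein S gene Pros1 higher in clone 6 than in clone 4 by 1.71 (adjusted p = 1.13e-11) and F2rl3 by 0.45 (adjusted p = 0.00425). In all, 5 were higher and 4 lower in clone 6 than in clone 4, beside 21.6% of all genes called. In clone 12 against clone 7, 8 were higher and 1 lower, beside 11.7% of all genes, of which 1393 were higher and 352 lower.

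Of 20 calmodulin family and microvillar adhesion genes, 13 were tested, and at high density 1 was higher and 0 lower in E6l2-KO than in wildtype cells, the one being Calml4 itself. In Trp53-KO cells 0 were higher and 1 lower, and in E6l2-Trp53-KO cells 2 were higher and 1 lower, beside 3.23%, 7.17% and 22.6% of all genes in the same order of comparisons. The second gene higher in the double knockout was the kinase gene Camk1d, at 15.6 ± 2.26 against 2.65 ± 0.380 CPM (log2 fold change 2.56, adjusted p = 1.33e-22). Unlike Calml4, Camk1d stood at 2.61 ± 0.661 CPM in E6l2-KO cells, 2.59 lower on the log2 scale than in the double knockout (adjusted p = 3.19e-22). Between genotypes of clones 3 of 13 were higher in E6l2-Trp53-KO and 0 lower, where 29.1% of all genes were called, among them the calcineurin subunit gene Ppp3ca (0.83, adjusted p = 0.00134).

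Of the non-muscle myosin II and stress fibre genes (32 genes, 27 tested), at high density 2 were higher and 0 lower in E6l2-KO and in Trp53-KO cells than in wildtype, and 4 were higher and 5 lower in E6l2-Trp53-KO, each count with Limch1. The shares of all genes called were 3.23%, 7.17% and 22.6%. Alpha-actinin 1 (Actn1), an actin crosslinker, had a level of 4.47 ± 0.435 CPM in wildtype, 7.69 ± 0.486 CPM in E6l2-KO (0.78, adjusted p = 0.000167) and 10.3 ± 1.42 CPM in double knockout cells (1.20, adjusted p = 1.98e-09). Filamin A (Flna) was lower in the double knockout than in wildtype by -0.30 (adjusted p = 6.47e-05), and vinculin (Vcl) higher by 0.23 (adjusted p = 0.000238). Between genotypes of clones, where Limch1 was near 0, 6 of 29 tested were higher and 2 lower in E6l2-Trp53-KO, beside 29.1% of all genes. Actn1 was higher by 2.47 (adjusted p = 0.00426) and Flna by 1.10 (adjusted p = 0.00874).

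Flanking genes with at least 1 CPM in every group varied less over the groups than the 4 genes. The 4 were chosen for large differences and were not held to that limit. The 3 nearest protein-coding genes on each side gave 24 genes, of which 16 were tested. Between genotypes at high density 10 of 96 tests were called, none by more than 0.28 in absolute log2 fold change. Over the same pairs of genotypes 3.23% to 22.6% of all genes tested were called. Tests of Gm28635 could not be called, with a fitted log2 fold change of 0. Calcrl, a calcitonin-like receptor gene 7.44 kb from Tfpi, ranged from 74.7 to 302 CPM over the 16 groups and was not called between E6l2-KO and wildtype cells (-0.02, adjusted p = 0.976). Cln6 and Pias1, 6.07 and 2.45 kb from Calml4, ranged from 22.5 to 30.8 CPM and from 35.9 to 55.4 CPM. Pias1, a SUMO ligase gene, was called in the double knockout against wildtype at 0.27 (adjusted p = 2.94e-05), where Calml4 was at 4.43. Between clones a larger difference was seen for the orphan receptor gene Gpr176, 150 kb from Thbs1. It was lower in clone 6 than in clone 4 (-1.89, SE 0.55, adjusted p = 0.010) and higher in clone 12 than in clone 7 (2.00, SE 0.32, adjusted p = 5.89e-06). Its group means ran from 0.0494 to 2.55 CPM.

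**Figure D4:**
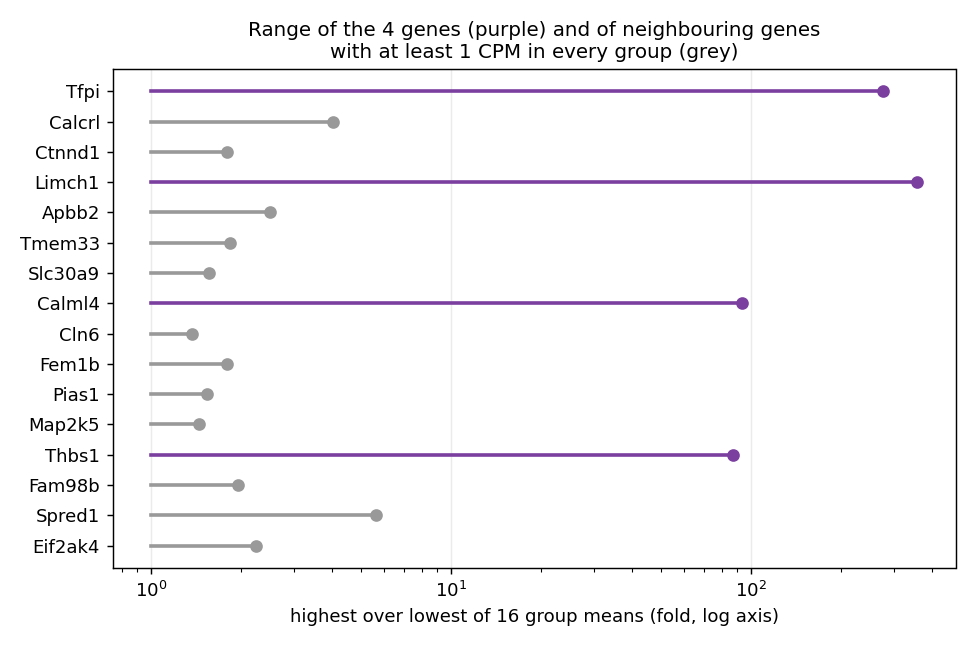
Highest over lowest of the 16 group means (fold, log axis) for the 4 genes and for flanking genes with at least 1 CPM in every group, grouped by the gene they flank. The 4 genes span 87.0-fold to 358-fold and the flanking genes shown 1.37-fold to 5.61-fold. The 4 genes were chosen for large differences and were not held to the limit of 1 CPM. Their lowest group means were 0.119 CPM for Tfpi, 0.111 CPM for Limch1 and 0.159 CPM for Calml4. Gpr176, left out by the limit, ranged from 0.0494 to 2.55 CPM.

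The genes with group means most like each of the 4 were ranked by Pearson correlation of log2(CPM + 0.5) over the 16 groups among 5845 candidate genes. For Tfpi they were Rsrc1 (0.92), the succinate dehydrogenase assembly gene Sdhaf4 (0.92), Zfp518b (0.91), Cand2 (0.89) and Ttll12 (0.87). For Limch1 they included Luc7l (0.93), the spindle gene Spag5 (0.93), the carboxylesterase gene Ces1d (0.92) and Trmt10a (0.92). Calml4 had weaker matches, with the tetraspanin gene Tspan3 (0.76), Pgap4 (0.75), Ces1d (0.74), Mst1 (0.71) and the protein C receptor gene Procr (0.68). For Thbs1 they were Rab11fip5 (0.83), lysozyme Lyz2 (0.83), cathepsin L Ctsl (0.82), Rasgef1b (0.80) and Cd28 (0.77). Over the 12 untransformed groups alone, Sdhaf4 stayed at 0.93 with Tfpi and Luc7l was at 0.63 with Limch1. The matches of Calml4 ran from 0.59 for Procr to 0.83 for Ces1d. Those of Thbs1 were spread, with Rab11fip5 at 0.75, Rasgef1b at 0.57, Cd28 at 0.45, Lyz2 at 0.30 and Ctsl at 0.07. In the clones Lyz2 was at 237 ± 14.5, 8.95 ± 0.574, 146 ± 7.20 and 565 ± 10.6 CPM in clones 4, 6, 7 and 12. Sdhaf4 spanned only 5.66 to 17.0 CPM over all groups.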

How the data were processed

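The authors deposited a table of estimated counts per gene, made with their SUSHI pipeline, per the series text, for 48 libraries. Per the labels' protocols, RNA came from a PicoPure kit and libraries from an Illumina TruSeq RNA V2 kit. Per the series text, cells were sorted into extraction buffer and libraries read on a NovaSeq. The sources used here give no aligner, counting program, genome build or annotation. Of nonzero values, 58.1% lay within 0.01 of a whole number. They were rounded and fitted in R 4.3.3 with edgeR 4.0.16 (limma 3.58.1), using TMM, filterByExpr, 1 coefficient per group over 16 groups (32 residual degrees of freedom) and the quasi-likelihood F test. Calls needed an adjusted p (Benjamini-Hochberg, all genes tested in a contrast) under 0.05. Library totals ran from 22.5 to 114 M counts, and without molecular identifiers counts of a few reads carry at least counting error. Libraries of a group differed beyond sampling noise in every group (chi-square over degrees of freedom of 2.40 or more).

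The 4 genes, the gene lists and the tests were chosen with earlier results of these data known. Named genes are the 4, Trp53 and Ercc6l2, the 5 genes most like each of the 4 (at least 5 CPM in the highest group and a log2 range of at least 1), up to 6 called members a list, 3 flanking genes a side, and the marker lists. Lyz2 and the single markers shown by clone were picked from these after their values were seen. A gene that the rule names is not reported here. GENCODE M21 matched 25424 of 25528 genes by ID (99.6%).

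For the 8 contrasts of groups, same-numbered libraries all correlated in their deviations from group means at over 0.1 in 2, Trp53-KO and E6l2-Trp53-KO against wildtype at high density (0.20 to 0.58 and 0.10 to 0.25). The labels give no reason for a pairing. The method was tested on simulated data. Alternatives were DESeq2 1.42.0, RLE factors, no filter, a replicate block, smaller fits, leaving out libraries or clones, libraries in place of clone sums, and, added after the data were seen, leaving out 3 libraries over 40 M counts.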

Additional observations from a re-analysis of the deposited data

Results flagged for a closer look

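Responses that ran opposite ways in different genotypes, with every library of one group on the other side of its DMSO libraries, were seen for 2 of the 4 genes, and none of these differences was tested. With etoposide, Tfpi was above DMSO in E6l2-KO cells (log2 fold change 0.22, SE 0.15) and below it in E6l2-Trp53-KO cells (-0.80, SE 0.12). The E6l2-KO value was smaller than the largest shift of a described difference without TMM factors (0.27), so its direction is uncertain. Calml4 was above DMSO with etoposide in Trp53-KO (0.68) and E6l2-Trp53-KO cells (0.44) and below it in wildtype cells (-0.77). At high density Calml4 was above DMSO in E6l2-KO (1.17) and E6l2-Trp53-KO cells (0.75) and below it in wildtype cells (-0.89). Calml4 held only 5 to 17 counts a library in wildtype cells in DMSO, with etoposide or at high density, and 5 to 18 counts in Trp53-KO cells, so the wildtype and Trp53-KO values among these rest on few reads.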

How the results depend on the processing

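Of 36 tests on the 4 genes 23 were called. Of 445 values under alternatives, 415 kept direction and side of the threshold, 11 lost the call, 8 gained it and 11 changed sign. Limch1 for Trp53-KO against E6l2-KO at high density was called with RLE factors (0.297), without a filter (0.299), with the replicate block (0.289) and on its 2 groups alone (0.293). Tfpi for E6l2-Trp53-KO against wildtype was not called on the 36 untransformed libraries (0.320), on its 2 groups alone (0.309) or with DESeq2 (0.321). Thbs1 between genotypes of clones was called when 12 libraries stood in for 4 clone sums (2.16, against 0.59 for the sums). That setting treats libraries of a clone as replicates. It also averages the fitted log levels of the clones of a genotype, so the 2 values do not measure the same quantity. The cause of the other changes was not tested.

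Leaving out 1 library at a time at high density, values ran from 0.13 to 0.51 for Tfpi in the double knockout against wildtype, from -0.56 to -0.39 for Thbs1 and from -0.37 to 0.0605 for Calml4 in Trp53-KO against wildtype. For Limch1 they ran from -0.14 to 0.29 for the double knockout against E6l2-KO, from -0.43 to 0.000706 against Trp53-KO, and from 0.21 to 0.36 for Trp53-KO against E6l2-KO. For clone 6 against 4 they ran from -2.20 to -1.14 for Calml4 and from -0.54 to 0.15 for Limch1. Leaving out 1 clone, the genotype difference ran from -1.16 to 5.70 for Thbs1, from -0.40 to 1.11 for Calml4 and from -0.0178 to 1.10 for Limch1.

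Numbers of genes called moved by over 1.5 times for E6l2-KO against wildtype on 2 groups alone (311 against 484), for Trp53-KO against wildtype without wildtype replicate 3 (703 against 1073), and for Trp53-KO against E6l2-KO without E6l2-KO replicate 2 or Trp53-KO replicate 1 (761 and 963 against 1452). They also moved for clone 6 against 4 without clone 4 replicate 3 (2107 against 3235) and for clone 12 against 7 without clone 12 replicate 3 (1005 against 1745) or, added after the data were seen, without the 3 deepest libraries (1133). Between genotypes of clones 9914 genes were called over 12 libraries and 2199 to 2702 with 1 clone left out, against 4623. Same-numbered libraries correlated at -0.23 to 0.58 over the 8 contrasts, and 2 to 6 of 6 libraries a contrast correlated best with their own number. The replicate block changed no other call. Of 96 described differences, 27 moved by over 1 SD without TMM factors, at most by 0.27, and 3 changed sign, namely Tfpi in wildtype with etoposide (-0.06) and at high density (-0.10), and Calml4 in E6l2-KO with etoposide (-0.005). Of the 5 genes most like each gene, 3, 0, 1 and 1 were shared with a Spearman ranking for Tfpi, Limch1, Calml4 and Thbs1, and 0, 1, 0 and 0 with the 12 untransformed groups. Levels under 1 CPM rest on few reads and are limited by depth.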
